A study of Mus musculus with 12 samples.

Results

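The Skint gene cluster of mouse chromosome 4 was mapped in the DNA of 12 tumours, at the 159 array probes that lie between 111501058 and 113876179 in mouse build mm9. The probes were selected on their position or on a gene name beginning with Skint, out of 161460 autosomal probes on the array. They carry 17 gene names, and 11 of these are Skint genes with 115 probes. The 6 listed genes, Skint3, Skint4, Skint5, Skint6, Skint9 and Skint10, hold 101 probes and were chosen because earlier results of these data showed low ratios there in knockouts. Differences between knockouts and wild types at these probes are therefore given as a description, with no test. All tumours came from C57BL/6 mice, and each array set the DNA of 1 tumour (red dye, Cy5) against normal kidney DNA of C57BL/6 mice (green dye, Cy3). The 6 knockout tumours came from mice labelled as knockouts of Mutyh, a DNA glycosylase that removes adenine paired with oxidised guanine. They were 3 renal cell carcinomas (KO1080, KO1097 and KO1134) and 2 malignant lymphomas (KO1077 and KO1111) of mice given ferric nitrilotriacetate (Fe-NTA), an iron chelate that damages kidney tubules, and 1 lymphoma of an untreated mouse (KO1414). The 6 wild-type tumours were 1 carcinoma (WT1179) and 3 lymphomas (WT1113, WT1114 and WT1121) of treated mice and 2 lymphomas of untreated mice (WT1405 and WT1420). The treated groups were male mice that received Fe-NTA into the abdomen over 12 weeks, with 5 injections in each week. The dose of iron per kg of body weight was 3 mg at first, for 1 week, and 5 mg for the remaining 11. Animals were killed at about 120 weeks, and tumour names join genotype and animal number.

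Skint genes encode membrane proteins of the immunoglobulin superfamily that are related to butyrophilins and are expressed mainly in skin and thymus epithelium. Skint1, the founding member, is needed for the maturation of a class of gamma delta T cells that settle in the mouse epidermis. The family lies in 1 cluster of closely related genes, so that probes of neighbouring members can resemble each other. The array measures DNA, so a low ratio says that less tumour DNA than reference DNA bound a probe, and nothing about expression. A tumour sample is a mixture, so fewer copies per cell and fewer cells with a change cannot be told apart.

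Values are log2 ratios of tumour over reference after subtraction of each array's chromosome 4 median. Before this centring the chromosome 4 median lay between -0.74 and -0.23 in the 4 carcinomas and between -0.13 and -0.01 in the 8 lymphomas. The carcinomas shared slide 1, and the lymphomas lay on slides 2 and 3. The Mutyh probe chr4:116490496-116490555 checked the labels and read from -2.92 to -2.37 in knockouts (median -2.40) and from -0.10 to 0.15 in wild types (median -0.02). The groups did not overlap there. The other Mutyh probe, chr4:116480656-116480715, read from 0.06 to 0.30 in knockouts and from -0.08 to 0.21 in wild types, shows no loss and checks no label.

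The sequences of 6 pairs of probes in the window matched each other over at least 25 aligned bases, and 3 of these pairs are shown as examples. They set a low probe beside a retained one, join the 2 highest Skint5 probes, or link 2 listed genes. Among the pairs not shown, 1 also links 2 listed genes, Skint6 and Skint5, and 1 sets a lowered Skint5 probe beside a retained one. Capitals mark the bases that both probes of a pair share, and sequences are written as the array design gives them. The first pair is a transcript probe at chr4:112260043-112260102 and a Skint2 probe at chr4:112315976-112316035, with 48 shared bases over 58 aligned positions.
ENSMUST00000117091: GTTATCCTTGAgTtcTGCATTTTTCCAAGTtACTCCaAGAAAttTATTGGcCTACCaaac
Skint2: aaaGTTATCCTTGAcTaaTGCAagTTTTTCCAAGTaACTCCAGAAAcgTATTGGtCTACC
The second pair is from Skint5, at chr4:113286238-113286297 and chr4:113295937-113295996, with 44 shared bases over 54 aligned positions.
Skint5 first: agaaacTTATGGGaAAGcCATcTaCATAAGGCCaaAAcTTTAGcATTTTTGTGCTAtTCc
Skint5 second: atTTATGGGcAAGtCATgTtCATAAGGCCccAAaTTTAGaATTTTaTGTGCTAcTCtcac
The third pair is from Skint9, at chr4:112065352-112065411, and Skint10, at chr4:112402440-112402499, with 28 shared bases over 31 aligned positions.
Skint9: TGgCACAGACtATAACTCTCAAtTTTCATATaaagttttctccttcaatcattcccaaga
Skint10: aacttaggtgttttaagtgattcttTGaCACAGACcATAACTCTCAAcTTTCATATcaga

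The first pair read differently in knockouts although most of its bases are shared. The transcript probe lay between -3.93 and -3.31 in the 6 knockouts, and the Skint2 probe lay between -0.41 and 0.29. In wild types these probes lay between -0.27 and 0.03 and between -0.15 and 0.12. The Skint5 pair was high at both members and the Skint9 and Skint10 pair was low at both members. The Skint9 probe read -3.31 ± 0.32 (SD, n = 6) and the Skint10 probe -2.76 ± 0.32 in knockouts.

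The first question was which parts of the cluster were absent, retained or raised in knockout tumours. A probe was called absent where each knockout lay at -1 or lower and each wild type above -0.5, and 86 of the 159 probes were of this class. The count was 8 with arrays centred on the autosomal median, where WT1179 misses the wild-type limit, and 44 without probes that were not well above background. The name absent stands for these limits only, and such a probe can still give clear red signal in knockouts. The probe chr4:112975213-112975272, at -1.32 on average, was well above background in red on all 6 knockout arrays. Lowered probes, at -0.5 or lower in each knockout and above -0.25 in each wild type, numbered 10, and retained probes, within 0.5 of 0 in all 12 tumours, numbered 32. Another 30 probes were mixed and 1 was raised, with each knockout at 0.5 or higher and each wild type under 0.25. Among 160943 autosomal probes outside the window, 0.00311% were absent, 0.0087% lowered and 0.00311% raised. All 5 absent probes outside the window also lay on chromosome 4, among them the Mutyh probe above and 1 probe of Gm12824 at chr4:114106021-114106080.

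**Figure D1:**
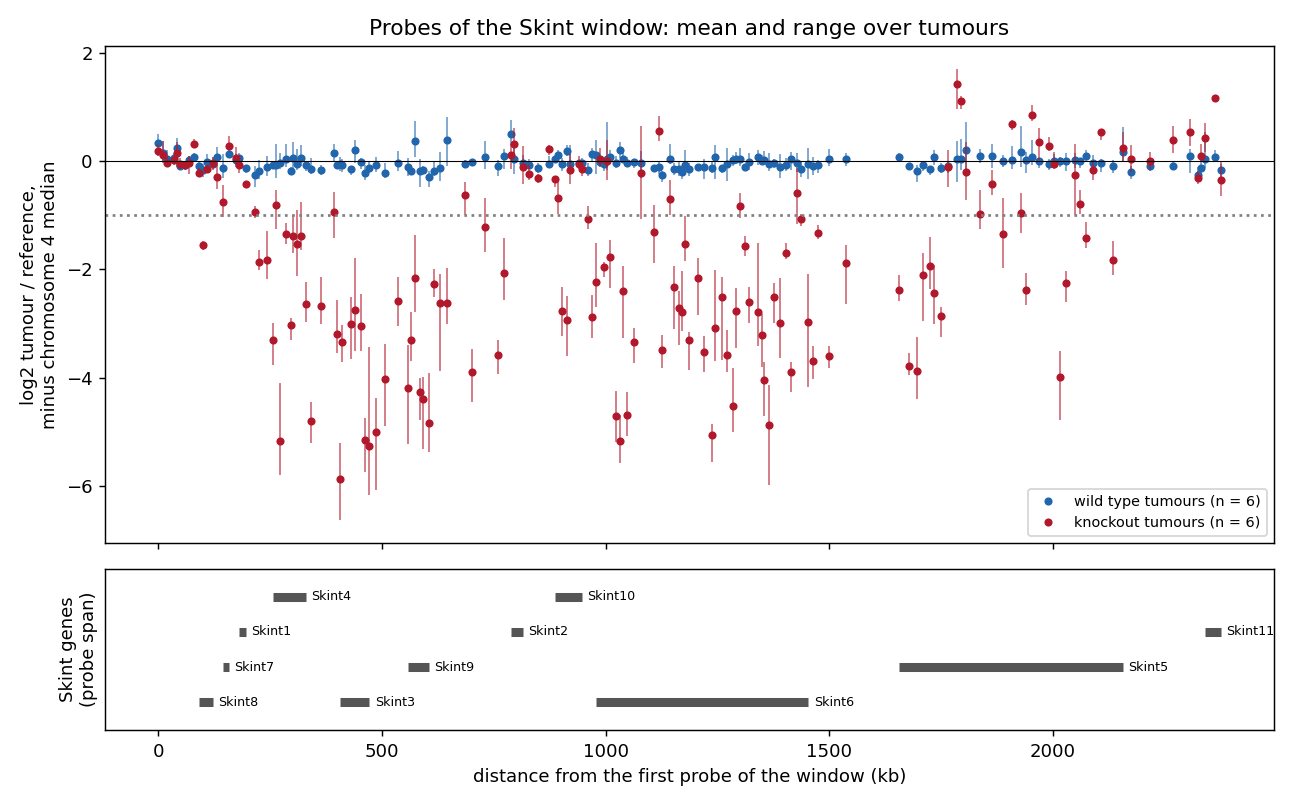
Each point is a probe of the window, with its distance from the first probe in kb on the x axis and its log2 ratio minus the chromosome 4 median on the y axis. Points are means over the 6 knockout (red) or 6 wild-type (blue) tumours, vertical lines run from the lowest to the highest tumour, the dotted line marks -1, and bars below show the span of each Skint gene's probes. Low knockout probes fill Skint4, Skint3, Skint9 and most of Skint6, while Skint2 stays near 0.

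Averaged over the 86 absent probes, the knockouts read -2.96 in KO1080, -2.87 in KO1097, -3.42 in KO1134, -3.12 in KO1077, -3.02 in KO1111 and -3.17 in KO1414. Wild types lay between -0.08 and -0.02. The means were -3.09 ± 0.19 (SD, n = 6) and -0.04 ± 0.02 (SD, n = 6). The class itself requires that the groups separate at these probes, in all tumours and on each slide, so the values describe its depth and support nothing further. With normexp background correction the knockout level was -1.97, and many of these probes have only a bound, as given with the signals. Within slide 1 the 3 knockouts averaged -3.09 ± 0.29 and the wild type -0.03, within slide 2 the values were -3.07 ± 0.07 and -0.05 ± 0.02 with 2 of each, and within slide 3 the knockout read -3.17 and the 3 wild types -0.04 ± 0.03. Across knockouts the median SD of an absent probe was 0.35, against 0.10 for the same probes in wild types and 0.10 for retained probes in knockouts. The probes themselves differed more than the tumours did. Their knockout means ran from -5.87 to -1.32 with a median of -2.91, and 40 were at -3 or lower.

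Along the chromosome the low probes formed blocks with retained stretches between them. At the left end the retained class held all 3 probes of Slc5a9, a sodium-coupled sugar transporter gene, both probes of Skint1, and 3 of 4 of Skint8. The remaining Skint8 probe, chr4:111601788-111601847, was absent on its own, between -1.64 and -1.48 in knockouts. The longest unbroken run by number held 20 absent probes over 246 kb, from 111900689 to 112147017, and covered Skint3 and Skint9. Further absent probes lay at 112202835 and from 112260043 to 112273763, with probes of other classes beside them. A retained stretch of 5 probes lay to their right between 112315976 and 112388310, from Skint2 into Skint10. Shorter absent runs lay between this stretch and 112653308, the longest with 6 probes from 112510205 to 112564300. Runs of 13, 10 and 12 absent probes then crossed Skint6 and reached into Skint5, as far as 113251939. The last absent probe was in Skint5, at chr4:113634498-113634557, and the 10 probes beyond it were of other classes. Of the 139 probes between the first and the last absent one, 61.9% were absent.

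Skint4 was absent at 6 of its 9 probes, lowered at 2 and mixed at 1. Its mean over probes was lowest in KO1077 at -2.52, had a median of -2.42 over the 6 knockouts and was highest in KO1097 at -1.93. Wild types lay between -0.10 and 0.15 with a median of -0.07. The groups did not overlap. The difference of knockouts minus wild types was -2.25 ± 0.12 (SE). Its lowest probe, chr4:111771909-111771968, read -5.17 ± 0.58 (SD, n = 6) in knockouts, and its highest, at chr4:111764589-111764648, read -0.81. The lowest probe has only a bound, with wild types at least 8.76-fold higher.

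Skint3 and Skint9 were absent at every probe. Skint3, with 7 probes, lay between -4.31 and -3.85 in knockouts with a median of -4.06, and between -0.14 and 0.02 in wild types with a median of -0.06. The difference was -4.01 ± 0.08 (SE), and 3 of its probes have only a bound in knockouts. The lowest probe of the whole window was the first of Skint3, at chr4:111906561-111906620, with -5.87 ± 0.53 in knockouts and -0.05 ± 0.11 in wild types. Skint9, with 6 probes, lay between -4.20 and -3.47 in knockouts with a median of -3.90, and between -0.17 and 0.00 in wild types with a median of -0.09. The difference was -3.77 ± 0.14 (SE). With the median of a gene's probes the differences were -3.31 for Skint3 and -3.93 for Skint9, and with normexp they were -2.04 and -1.77, so the order of these genes is not settled. For both genes each knockout was far below each wild type.

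Skint10 was absent at 2 of 7 probes, mixed at 1 and retained at 4. The absent probes lie side by side, at 112402440 to 112414055, and read -2.76 and -2.94 on average in knockouts, while 3 probes to their right read -0.15, -0.05 and -0.14. The probe at -2.94 has only a bound, with wild types at least 2.86-fold higher. Over all its probes Skint10 lay between -1.17 and -0.96 in knockouts with a median of -0.98, and between -0.02 and 0.08 in wild types. The groups did not overlap, and the difference was -1.03 ± 0.04 (SE). The gene mean therefore joins a low part with a part near 0: with the median of the probes in place of the mean, the difference was -0.36.

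Skint6, which has the most probes, was absent at 33 of 42, lowered at 2, mixed at 6 and retained at 1. It lay between -2.94 and -2.37 in knockouts with a median of -2.47, and between -0.09 and 0.01 in wild types with a median of -0.03. KO1134 was the lowest, and all knockouts were below all wild types, with a difference of -2.51 ± 0.09 (SE). Its probes ranged from -5.16 at chr4:112533556-112533615 to 0.55 at chr4:112620067-112620126. The latter was above 0 in each knockout, between 0.37 and 0.84, while its neighbours on both sides read -1.30 and -3.50. The probe at -5.16 has only a bound, with wild types at least 13.2-fold higher. One Skint6 probe, at chr4:112785621-112785680, was spotted 5 times on each array and read -4.53 ± 0.44 (SD, n = 6) in knockouts. The SD over its spots was 0.11 in the median tumour and at most 0.42.

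Skint5 was the most broken of the listed genes, with 12 of 30 probes absent, 4 lowered, 10 mixed and 4 retained, and with 18 changes of class along the gene. It lay between -1.22 and -0.93 in knockouts with a median of -0.99, and between -0.05 and 0.08 in wild types with a median of 0.01. The groups did not overlap, and the difference was -1.05 ± 0.05 (SE). The mean hides a range from -3.99 at chr4:113518071-113518130 to 1.43 at chr4:113286238-113286297. The probe at -3.99 has only a bound, with wild types at least 11.8-fold higher. Over the 30 probes the lowest correlation between any 2 knockouts was 0.948. The lowest was 0.971 in Skint10, 0.946 in Skint4, 0.915 in Skint6, 0.598 in Skint9 and 0.571 in Skint3. These are descriptions over probes of 1 gene, which are not replicates.

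**Figure D2:**
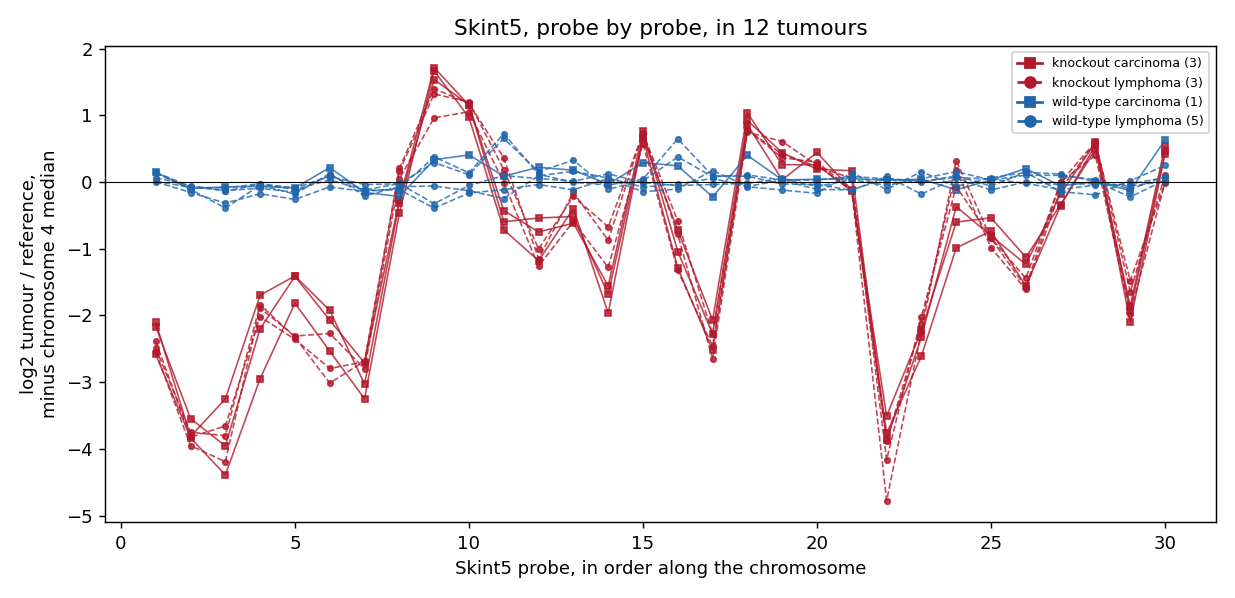
The x axis gives the 30 Skint5 probes in order along the chromosome and the y axis their log2 ratio minus the chromosome 4 median. Each line is 1 tumour, red for knockouts and blue for wild types, with squares and solid lines for carcinomas and circles and dashed lines for lymphomas. Knockout means run from -3.99 to 1.43, while wild-type means stay between -0.19 and 0.20. The knockout carcinomas do not overlap the knockout lymphomas at 11 of the 30 probes, above them at 6 and below at 5. Among autosomal probes outside the window, 13.9% lie above in this way and 11.6% below.

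**Figure D3:**
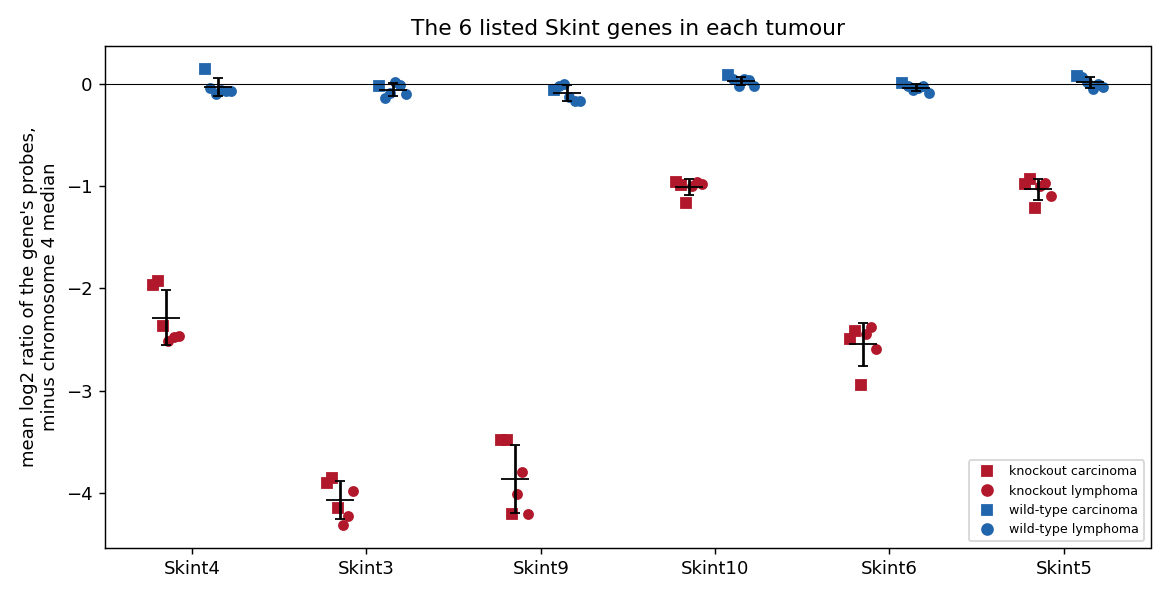
Each marker is the mean log2 ratio of a listed gene's probes in 1 tumour, minus the chromosome 4 median, with squares for carcinomas and circles for lymphomas. Black bars show the mean and SD over the 6 knockout (red) or 6 wild-type (blue) tumours. The knockouts lie below the wild types for all 6 genes, by -1.03 for Skint10 and by -4.01 for Skint3.

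The other 5 Skint genes on the array were closer to 0. Skint8 averaged -0.48 ± 0.03 (SD, n = 6) in knockouts and -0.08 ± 0.05 in wild types, through its single absent probe. Skint7 averaged -0.23 ± 0.15 and 0.01 ± 0.08, with 1 probe at -0.75 and 1 at 0.29 in knockouts. Skint1 averaged -0.24 ± 0.06 in knockouts and -0.04 ± 0.06 in wild types. Though its probes were of the retained class, its knockouts, between -0.32 and -0.19, did not overlap its wild types, between -0.09 and 0.04. Skint1, Skint7 and Skint8 lie together at the left end, beside the low block that starts left of Skint4. Skint2 averaged 0.11 ± 0.15 in knockouts and 0.18 ± 0.08 in wild types, and its knockouts and wild types overlapped. Skint11 averaged 0.42 ± 0.15 and -0.01 ± 0.08, with its 3 probes at 0.43, 1.16 and -0.34 in knockouts.

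Intervals without a gene name held 18 of the 86 absent probes, and not all of them followed both neighbours. Between Skint1, which was retained, and Skint4, 2 of 3 probes were absent. The probe left of Skint2, at chr4:112273704-112273763, was absent with a knockout mean of -2.07, while no Skint2 probe was absent. All 3 probes between Skint3 and Skint9 were absent, with a mean of -3.87 ± 0.38 in knockouts, and so were all 4 between Skint6 and Skint5, with -2.62 ± 0.15. The 3 probes between Skint2 and Skint10 were retained, with -0.10 ± 0.04 in knockouts and -0.08 ± 0.05 in wild types. The widest interval without a probe, 117 kb, lies between 113039513 and 113156355 inside the run that joins Skint6 to Skint5, so nothing was read there.

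Knockouts above wild types were not counted over other autosomal probes, so such probes are only described here. Each knockout was above each wild type at 12 probes of the window, 6 of them in Skint5. Others were the Skint6 probe above, the probe of ENSMUST00000120249, between 0.16 and 0.66 in knockouts and between -0.17 and -0.01 in wild types, and 3 probes without a gene name. The probe that met the raised class was in Skint11, at chr4:113862766-113862825, and read 1.16 ± 0.04 (SD, n = 6) in knockouts, between 1.11 and 1.2, and 0.09 ± 0.08 in wild types, between -0.01 and 0.22. The groups did not overlap. Just outside the class lay 4 Skint5 probes at which at least 1 wild type, WT1179 at each of them, exceeded 0.25. The printed pair read 1.43 ± 0.28 and 1.12 ± 0.09 in knockouts, and 0.04 ± 0.34 and 0.05 ± 0.21 in wild types. The others, at chr4:113410721-113410780 and chr4:113453827-113453884, read 0.69 ± 0.07 and 0.85 ± 0.11 in knockouts. At each of these 4 probes all knockouts were above all wild types. Without WT1179 the raised class held 4 probes. With the wild-type limit at 0.5, chosen after the data were seen, 5 probes were raised.

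**Figure D4:**
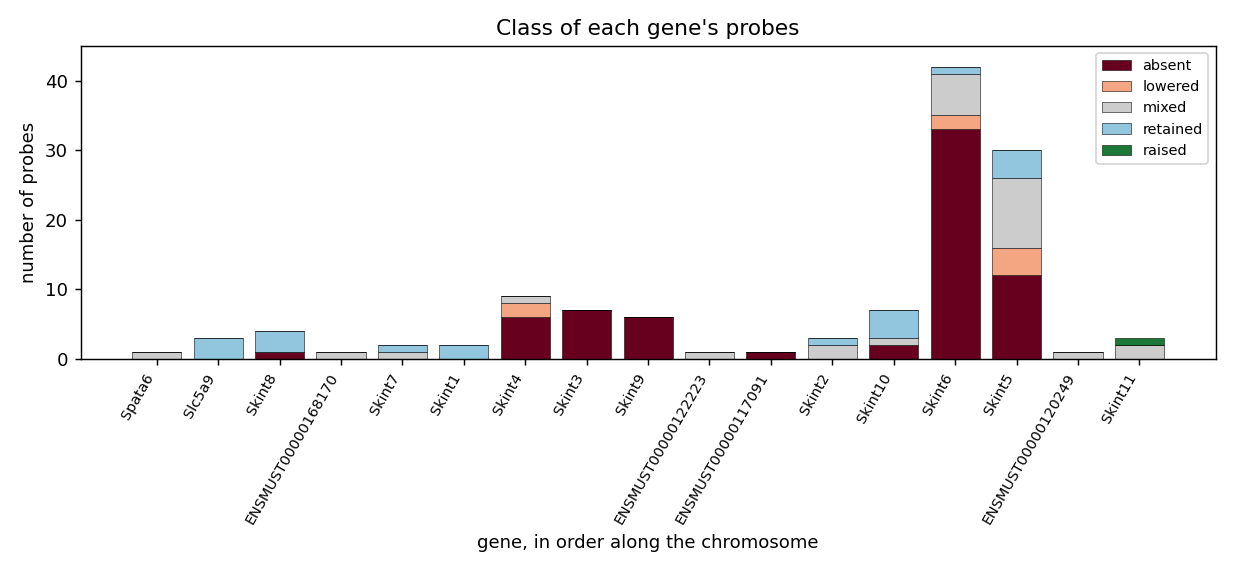
The bars count the probes of each gene in the window by class, with genes in order along the chromosome and the number of probes on the y axis. Skint3 and Skint9 hold absent probes throughout, Skint6 holds 33 absent probes of 42, and the raised probe is in Skint11.

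At the edge of the absent class, the Skint4 probe chr4:111802675-111802734 reached -1.002 in its highest knockout. The nearest probe outside it, chr4:112936900-112936959 in Skint6, reached -0.97 in its highest knockout. In all, 19 probes with a knockout mean of -0.5 or lower were not absent. Over the window, each knockout was below each wild type at 108 probes and above each wild type at 12. The same splits were not counted over other autosomal probes, so these counts are a description.

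The depth of the lowest values is limited by the red signal. At absent probes the median red signal lay between 70.1 and 98.0 in knockouts and between 519 and 821 in wild types, while the median green signal lay between 844 and 959 on all 12 arrays. Red was not well above background on all 6 knockout arrays at 18 absent probes, 8 of them in Skint6 and 3 in Skint3, and on at least 1 knockout array at 42. Such a probe has only a bound in knockouts. Set against the higher of its own signal and the lowest signal well above background on each array, wild types were at least 20.2-fold higher at the first Skint3 probe and at least 2.45-fold higher at the least bounded of the 18. Over the 86 absent probes the knockout mean had a Spearman correlation of 0.10 with the probe's GC content and 0.03 with its green signal, as a description over probes of 1 region. Absent and retained probes both had a median GC content of 36.7%.

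The second question was whether tumour type went with the cluster, which the choice of probes had not used. Over 20281 autosomal genes, limma with tumour type, genotype and treatment as terms called 6.05% between carcinomas and lymphomas at an adjusted p under 0.05, and 5 of the 17 genes in the window. Of the listed genes, Skint4 alone passed, higher in carcinomas by 0.34 ± 0.08 (SE, limma adjusted p = 0.0421). It averaged -2.09 ± 0.24 in the 3 knockout carcinomas and -2.49 ± 0.03 in the 3 knockout lymphomas. It read 0.15 in WT1179 against -0.07 ± 0.02 in the 5 wild-type lymphomas. Carcinomas were thus on the higher side in both genotypes, but the wild-type side rests on WT1179 alone. Skint11 was higher by 0.21 ± 0.04 (limma adjusted p = 0.0220), Skint7 by 0.21 ± 0.05 (limma adjusted p = 0.0449) and the transcript ENSMUST00000168170 by 0.33 ± 0.04 (limma adjusted p = 0.00245). The transcript ENSMUST00000120249, read by 1 probe, was lower by -0.32 ± 0.06 (limma adjusted p = 0.0177).

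These differences depend on the centring and on single tumours. With arrays centred on the autosomal median, the differences of Skint4, Skint11, Skint7 and ENSMUST00000168170 turned to -0.15, -0.27, -0.27 and -0.15, and 10 genes of the window were called, all lower in carcinomas. With the slide as a random block 1 gene was called, ENSMUST00000168170, and Skint4 had a limma adjusted p of 0.140. All carcinomas shared slide 1, so tumour type and slide cannot be told apart.

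The depth of the absent probes was also set between tumour types within the knockouts, a comparison too small to reach a p under 0.05. It was -3.09 ± 0.29 (SD, n = 3) in carcinomas and -3.10 ± 0.08 (SD, n = 3) in lymphomas, a difference of 0.02 (exact permutation test, two-sided, p = 1.0), where 0.1 is the smallest p that 3 against 3 allow. With arrays centred on the autosomal median the difference was -0.37, each carcinoma lay below each lymphoma, and the exact permutation p was 0.1. Each knockout carcinoma was above each knockout lymphoma at 11 of the 86 absent probes (12.8%), against 13.9% of autosomal probes outside the window. Each was below at 9 (10.5%), against 11.6% outside. Both shares were near the background. Over all 159 probes, carcinomas were above at 26 (16.4%) and below at 25 (15.7%).

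At some single probes the knockout carcinomas and knockout lymphomas did not overlap. At the Skint6 probe chr4:112580427-112580486 the carcinomas read -0.41, -1.06 and -0.95, and the lymphomas 0.66, 0.58 and -0.09. At the Skint5 probe chr4:113549473-113549532 the carcinomas read -0.37, -0.60 and -0.99, and the lymphomas 0.32, 0.18 and -0.07. At the retained Skint2 probe printed above, the carcinomas read -0.41, -0.41 and -0.39, and the lymphomas 0.10, 0.29 and 0.22. At the Skint6 probe chr4:112842366-112842425 the order was the other way, with carcinomas at -2.79, -1.51 and -2.53 and lymphomas at -3.24, -3.25 and -3.41. Red was not well above background there on any knockout array, so that order is uncertain. These 4 probes were picked after their values were seen, and their differences were not tested.

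Treatment with Fe-NTA was compared with no treatment in the same model. It called 0.38% of all genes and 0 of the 17 in the window, where 1 had an unadjusted p under 0.05. The differences in the window ran from -0.19 to 0.18, and the lowest limma adjusted p was 0.0626. The 3 untreated tumours were all lymphomas on slide 3, where WT1121 was the only treated one. Treatment and slide can therefore hardly be told apart. The difference between tumour types was also compared between genotypes, which called 7.63% of all genes and 1 of the 17. ENSMUST00000120249 had a difference of -0.31 ± 0.07 (SE, limma adjusted p = 0.0130), and with arrays centred on the autosomal median this was -0.04 (limma adjusted p = 0.959). The share of 1 in 17 is not above that of all genes. It read 0.19 ± 0.03 in knockout carcinomas, 0.61 ± 0.05 in lymphomas of knockouts, -0.17 in WT1179 and -0.06 ± 0.04 in the 5 lymphomas of wild types. The wild-type side of this comparison rests on 1 carcinoma.

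Relatives of the Skint genes elsewhere in the genome were read from a list of 11 butyrophilin family genes, of which 6 had values. limma called 0 of them between genotypes, against 0.113% of all genes, and 0 had an unadjusted p under 0.05. Their differences lay between -0.09 and 0.09 with a median of 0.03, against -0.003 for all genes. On either side of the window the nearest named genes were AK034307, with 1 retained probe, and Gm12824, with 16 of 23 probes retained, 6 mixed and 1 absent.

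Among 12488 genes outside the window with at least 2 probes, the pattern over the 12 tumours most like the mean of the absent probes was that of Mutyh itself, with a Pearson correlation of 0.99. ENSMUST00000143340 followed with 0.99, ENSMUST00000106658 with 0.94, Smap2 with 0.93 and Larp1 with 0.89. The first 4 lie on chromosome 4 and Larp1 on chromosome 11. Their sizes differ widely, since ENSMUST00000143340 averaged -0.83 in knockouts and Smap2 -0.10. These correlations are descriptions over tumours that fall into 2 groups. The absent class was defined by a split between these groups, and Mutyh and ENSMUST00000143340 each hold a probe that meets the same rule. Their high rank follows from that rule and supports nothing further.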

How the data were processed

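The 12 arrays carry 60-base probes placed on mm9. Agilent Feature Extraction 10.7.1.1 made the deposited intensities, which per the file headers are background-subtracted and dye-normalized by its linear method, and the deposited log ratio column is the log10 of red over green, used as an alternative. The deposited series table holds uncentred log2 ratios, per a comparison with the scanner values. The log2 of red over green was taken per probe, outlier spots were left out, spots of a probe were averaged, and each chromosome was centred on its median. Genes were means of their probes, and 1461 probes whose name lay on several chromosomes were left out. Genes were fitted with limma 3.58.1 in R 4.3.3 with Benjamini-Hochberg adjustment. Classes and limma were tested on simulated data. Similar probes were found with blastn 2.17.0, word length 7 and an E value of at most 0.01. Of the 17 gene names, 13 were RefSeq symbols. Members and lists were chosen with earlier results of these data known. Named genes were the 6 listed, others in the window, its neighbours, the 5 most alike and the butyrophilin list. Tumours carry different animal numbers. The number of arrays limits the precision. Alternatives were other centrings, other columns, normexp with offset 50, other thresholds, each tumour left out, and the slide as a block.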

Additional observations from a re-analysis of the deposited data

Results flagged for a closer look

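In 36 groups of 6 tumours, 2 held a tumour far from the others, and chance flags about 1 group in 20. WT1179 stood above the other wild types at Skint4, with 0.15 against -0.04 for the nearest. KO1134 stood below the other knockouts at Skint10, with -1.17 against -0.997 for the nearest. The difference between tumour types differed between genotypes at ENSMUST00000120249, by -0.31, and with arrays centred on the autosomal median this difference was -0.04 with a limma adjusted p of 0.959.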

How the results depend on the processing

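The count of 86 absent probes stayed between 59 and 100 under other thresholds, the other signal columns, normexp, lymphomas only and retained-probe centring (chosen after the data were seen), and between 86 and 87 without single tumours. It was 8 with autosomal centring, where WT1179, with a chromosome 4 median of -0.74, misses the wild-type limit, and 44 without probes not well above background. Raised probes numbered 1, 2 with autosomal centring, 2 with normexp, 6 in lymphomas only, 3 at a threshold of 0.3, 5 with wild types under 0.5, and 1 to 4 without single tumours, 4 being without WT1179. The level of the absent probes was -3.09, -3.33 with autosomal centring, -1.97 with normexp, and -3.14 to -3.03 without single knockouts. The difference of 0.02 between knockout carcinomas and lymphomas turned to -0.37 with autosomal centring (exact permutation p = 0.1) and ran from -0.09 to 0.19 without single knockouts. It turned negative without KO1080 (-0.045), KO1097 (-0.087) or KO1414 (-0.014).

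Tumour type called 5 genes of the window, 10 with autosomal centring, 3 among genes with at least 2 probes, 1 with the slide as a random block and 3 without the treatment term. Without single tumours it called 1 to 5: 1 without KO1077 or KO1111, 2 without KO1097, and 3 without KO1080, KO1134, KO1414, WT1113, WT1114, WT1405 or WT1420. Treatment called 0, and 0 to 1 without single tumours, 1 without WT1121. Without WT1121, slide 3 held all untreated tumours and no treated one, so treatment and slide cannot be told apart there. The comparison of type between genotypes called 1, 0 with autosomal centring, 2 with the median of a gene's probes, 0 among genes with at least 2 probes, and 1 to 3 without single tumours, 3 without KO1134. It could not be fitted without WT1179. The 6 listed genes were chosen for low knockout ratios in these data, so a kept direction supports nothing further. Their differences kept their direction under all 108 alternatives, and 10 moved by more than the SD over knockouts. With normexp they were -2.04 for Skint3, -1.82 for Skint4, -0.75 for Skint5, -1.61 for Skint6, -1.77 for Skint9 and -0.58 for Skint10. No paired analysis was possible because the groups share no replicate number. Red signal near background limits the lowest values.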
